A study of Mus musculus with 10 samples.

Results

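Dual specificity phosphatases and Sprouty proteins are the brakes that the ERK MAP kinase pathway builds against itself. After a T cell receptor is engaged, Ras activates the kinases Raf, MEK and ERK in turn, and active ERK switches on immediate early genes and, with them, the genes of its own inhibitors. The phosphatases then remove the activating phosphates from MAP kinases, while Sprouty and Spred proteins act further up, at Ras and Raf. The messages of these inhibitors are short-lived in many cells and are often read as a trace of recent ERK signalling. In the thymus the strength of ERK and Egr signalling is tied to the selection of T cells, including invariant natural killer T (iNKT) cells, and Id3 is itself a target of Egr1.

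Of the 18193 genes that the platform annotation names on the array, 9 of this kind are described here. They form a named list, and no measured value enters the rule that picks them: the phosphatases Dusp1, Dusp2, Dusp4, Dusp5, Dusp6 and Dusp10, the Sprouty genes Spry1 and Spry2, and Spred1. All 18 probe sets given to these genes alone were examined. Of these 12 passed the filter on low values (log2 intensity above the median of the whole table, 5.78, on at least 2 arrays), and they cover all 9 genes. The 6 that did not pass, 1 of Dusp10 and 5 of Spred1, lay between 35.3 and 54.6 intensity units on every array, below the table's median of 55.1, and are not tested.

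The study measured RNA of iNKT cells sorted from thymi of 6-week-old C57BL/6 mice on 10 Affymetrix arrays. The sorted cells bound the CD1d tetramer (Tet+) and lacked CD24 and NK1.1. Stage 1 cells were negative for CD44, and stage 2 cells, the later stage, were positive for it. The 4 groups were Id3KO stage 1 (2 arrays), WT stage 1 (2 arrays), Id3KO stage 2 (3 arrays) and WT stage 2 (3 arrays). The labels call the replicates biological, do not say how many mice went into each array, and do not describe the Id3 allele. Id3 is a small protein that binds E proteins such as E2A and HEB and keeps them off DNA.

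The arrays were alike in overall signal, with medians between 54.8 and 55.5 intensity units. The Id3 probe set read between 54.2 and 69.8 on the 5 Id3KO arrays, against 818 to 1289 on the 5 WT arrays, so each array matched its genotype label. All 8 T cell and iNKT markers on the array were above the filter. Of the 6 double-positive thymocyte markers on the array, Rag1, Rag2, Dntt, Cd8b1 and Ptcra were not, while 1 was kept and was not called for genotype. Cd44 averaged 455 in Id3KO stage 2 cells and 193 in Id3KO stage 1 cells, and 769 in WT stage 2 cells and 186 in WT stage 1 cells. Its log2 difference between stages was 1.25 in Id3KO and 2.07 in WT, neither of them called. At stage 2 it was lower in Id3KO than in WT by a log2 difference of -0.82, also not called.

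Across all 25061 kept probe sets, limma called 0.802% at stage 1, 4.21% at stage 2 and 4.97% when the genotype difference was averaged over both stages (adjusted p under 0.05, either direction). Of the 12 probe sets of the ERK feedback genes, 0 were called at stage 1, 2 at stage 2 and 2 in the average. Spry1 was higher and Dusp5 lower in Id3KO at stage 2, and Dusp4 was higher and Dusp5 lower in the average. The members thus moved in both directions, and most of them passed no test. Without adjustment, 1 member at stage 1, 4 at stage 2 and 3 in the average had a limma p under 0.05, against 10.5%, 16.9% and 16.8% of all kept probe sets. No tool other than limma was run.

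**Figure D1:**
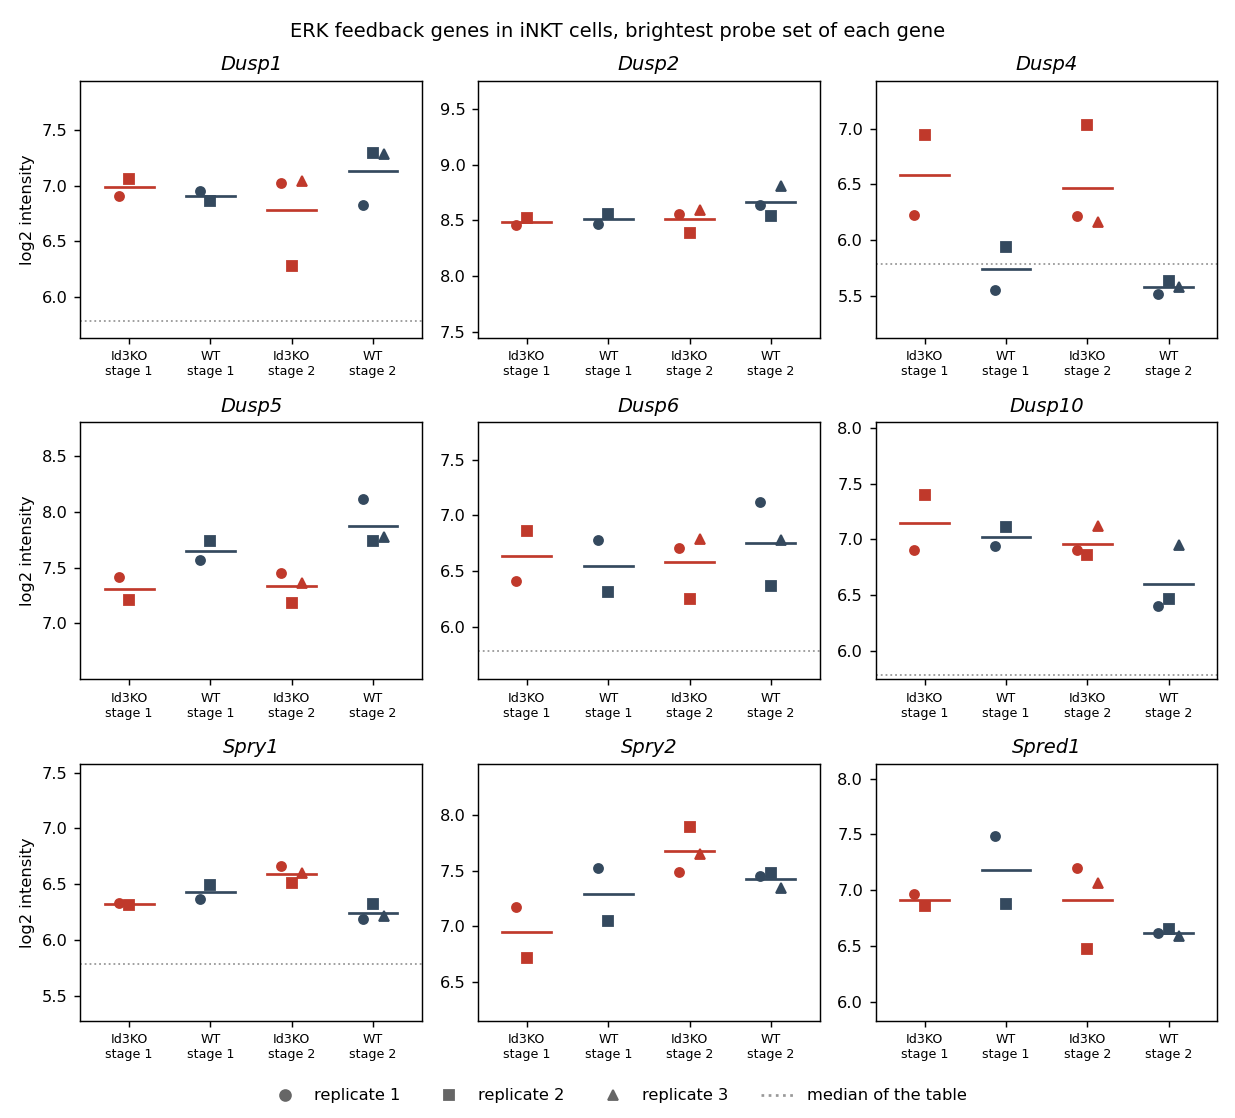
Log2 intensity (vertical axis) of the brightest probe set of each of the 9 genes on every array, by group (horizontal axis), with Id3KO in red and WT in dark blue. Symbols mark replicate numbers, horizontal bars are group means, each panel spans the same number of log2 units, and the dotted line is the table's median of 5.78 where it falls within the panel. Dusp4 lies higher and Dusp5 lower on all 5 Id3KO arrays than on all 5 WT arrays, and Spry1 lies higher in Id3KO at stage 2 and lower at stage 1.

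Promoter windows of Dusp5 and Spry1, the members called at stage 2, were read from RefSeq (build GRCm38.p6). They are shown because Id3 acts through E proteins, which bind the E-box CANNTG. ERK acts on promoters through the serum response factor, which binds the CArG box (a pair of C, then A or T bases, then a pair of G). The CArG box was not a reason set beforehand, as it was looked for after the Dusp5 sequence had been seen. Each window holds 250 bases before and 50 after the gene's start. Capitals mark CArG boxes in Dusp5, chr19:53528895-53529194 on the plus strand, and CANNTG in Spry1, chr3:37639697-37639996 on the plus strand.
Dusp5: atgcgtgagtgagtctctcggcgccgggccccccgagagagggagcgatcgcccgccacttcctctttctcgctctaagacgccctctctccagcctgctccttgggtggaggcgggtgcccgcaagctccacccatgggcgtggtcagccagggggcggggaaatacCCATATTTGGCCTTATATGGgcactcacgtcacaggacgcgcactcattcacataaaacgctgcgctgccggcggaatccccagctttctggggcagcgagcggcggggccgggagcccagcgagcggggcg
Spry1: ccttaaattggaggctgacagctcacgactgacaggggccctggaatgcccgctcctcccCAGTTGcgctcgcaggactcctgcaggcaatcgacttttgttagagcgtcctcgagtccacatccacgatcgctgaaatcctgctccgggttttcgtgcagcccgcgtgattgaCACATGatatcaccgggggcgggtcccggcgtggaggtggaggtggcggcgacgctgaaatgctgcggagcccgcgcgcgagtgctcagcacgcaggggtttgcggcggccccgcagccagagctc

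Entries were found for 8 of the 9 genes, Dusp4 having none. Both strands were searched in each window. An E-box of the form CAGGTG or CACCTG occurred in 0 of the 8 windows, against 20.2% of all 32851 windows in the table, and CAGCTG in 0 of 8, against 16.3%. Any CANNTG, which includes both, occurred in 5 of 8 windows (Dusp1, Dusp2, Dusp6, Spry1 and Spry2), against 72.3% of all windows. In Spry1 the matches start 190 and 76 bases before the gene's start. The Dusp5 window had no CANNTG. It held 2 adjoining CArG boxes, starting 82 and 72 bases before the gene's start, and no other of the 8 windows held one, against 1.63% of all windows. This motif was added to the search after the Dusp5 sequence had been seen, so its presence in Dusp5 is a description and no test. The cAMP response element TGACGTCA occurred in Dusp1 alone, 143 bases before the start, against 1.79% of all windows. These matches describe letters in a short window and do not show that any factor binds there.

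Among the inducible nuclear phosphatases, Dusp4 (also MKP-2, probe set 1428834_at), which acts on ERK and also on JNK and p38, was higher on Id3KO arrays at both stages. At stage 1 its intensity was 74.9 and 122.8 on the Id3KO arrays, against 46.9 and 61.3 on the WT arrays. At stage 2 it was 74.5, 131.2 and 71.5 on the Id3KO arrays, against 45.8, 49.5 and 47.9 on the WT arrays. All 5 Id3KO arrays lay above all 5 WT arrays, and 1 array of each Id3KO stage, replicate 2 in both, stood well above the others. In WT, 4 of 5 arrays were below the table's median, so the WT level is near background. With the table's median as a floor for arrays below it, the Id3KO mean was 0.72 log2 units higher at stage 1 and 0.69 at stage 2. These are differences of group means and make no allowance for the spread between arrays. It was the Id3KO arrays that carried this probe set past the filter.

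The fitted log2 difference of Dusp4, which takes the WT readings near background as they stand and is no exact size, was 0.84 ± 0.31 (SE) at stage 1, with a limma adjusted p of 0.379, and 0.90 ± 0.26 at stage 2, with an adjusted p of 0.0990. Averaged over the stages it was 0.87 ± 0.20, with an adjusted p of 0.0444. Without the filter on low values, which this gene passed through the group where it is high, the average was not called (adjusted p 0.0826). It also lost its call when any 1 of 7 arrays was left out, with adjusted p of 0.169 without WT stage 1 replicate 1, 0.0861 without WT stage 1 replicate 2, 0.136 without Id3KO stage 1 replicate 2 and 0.0541 without Id3KO stage 2 replicate 1. The 3 others were WT stage 2 replicates 1, 2 and 3, without which it was 0.0863, 0.0872 and 0.0927. The difference stayed between 0.69 and 1.05 in every alternative. Between stages Dusp4 differed by -0.11 ± 0.29 in Id3KO and -0.17 ± 0.29 in WT, and the interaction was 0.06 ± 0.40, none of them called.

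Dusp5 (probe set 1437199_at), an inducible nuclear phosphatase that acts on ERK and anchors it in the nucleus, was the member that fell in Id3KO. Stage 1 intensities were 170.6 and 147.8 on the Id3KO arrays, against 189.5 and 213.8 on the WT arrays. At stage 2 it read 174.9, 145.7 and 164.9 on the Id3KO arrays, against 277.0, 213.3 and 218.9 on the WT arrays. Every Id3KO array was below every WT array, and WT stage 2 replicate 1 was the highest of the 10.

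At stage 2 the difference in Dusp5 was -0.54 ± 0.12 on the log2 scale, 1.45-fold lower in Id3KO, with a limma adjusted p of 0.0478. At stage 1 it was -0.34 ± 0.15, with an adjusted p of 0.485, and averaged over the stages it was -0.44 ± 0.098, 1.36-fold lower, with an adjusted p of 0.0371. The stage 2 call was lost with any 1 of the 10 arrays left out, at adjusted p between 0.0637 and 0.135. The average kept its call without 3 of the 10 arrays. It was lost without WT stage 1 replicate 1 (0.0802) or 2 (0.141), WT stage 2 replicate 3 (0.0610), Id3KO stage 1 replicate 1 (0.0680) or 2 (0.124), and Id3KO stage 2 replicate 2 (0.0709) or 3 (0.0610). The difference at stage 2 was negative in all of these, between -0.61 and -0.42. The interaction of genotype and stage, -0.20 ± 0.20, was not called.

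**Figure D2:**
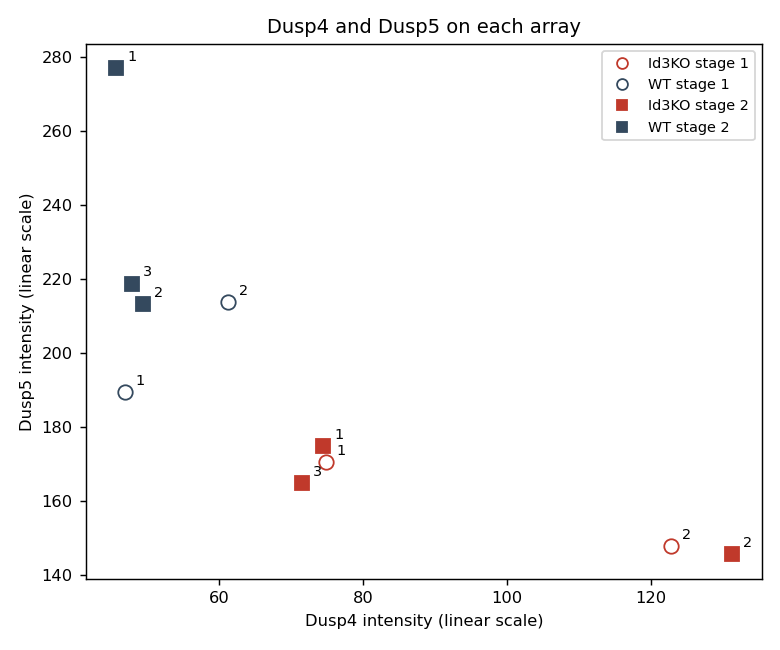
Intensity of Dusp4 (horizontal axis, linear scale) against intensity of Dusp5 (vertical axis, linear scale) on each of the 10 arrays, with open circles for stage 1, filled squares for stage 2, Id3KO in red and WT in dark blue, and the replicate number beside each point. Id3KO arrays lie at lower right and WT arrays at upper left, and the 2 Id3KO arrays with the highest Dusp4 have the lowest Dusp5.

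In the plot of Dusp4 against Dusp5 the arrays fall into separate genotype clusters. That follows from the choice of these genes, each of which alone separates all Id3KO arrays from all WT arrays. Within Id3KO, both replicate 2 arrays had the highest Dusp4 (122.8 and 131.2) and the lowest Dusp5 (147.8 and 145.7).

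Dusp1 (MKP-1, probe set 1448830_at), an immediate early phosphatase of p38, JNK and ERK, did not separate the genotypes. At stage 2 it read 129.7, 77.9 and 132.1 on the Id3KO arrays, against 113.4, 156.4 and 155.8 on the WT arrays. Its stage 2 difference of -0.35 ± 0.21 (limma adjusted p 0.472) rests largely on Id3KO replicate 2, since it was -0.10 without that array. Its stage 1 mean was 127 ± 9.45 on Id3KO arrays and 120 ± 5.27 on WT arrays (SD, n = 2 each), a log2 difference of 0.08 ± 0.26.

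Dusp2 (PAC-1, probe set 1450698_at), a nuclear phosphatase of activated lymphocytes, varied little across groups. It ranged from 334 to 386 on the Id3KO arrays and from 354 to 449 on the WT arrays of both stages together. The log2 difference was -0.02 ± 0.11 at stage 1 and -0.15 ± 0.092 at stage 2 (limma adjusted p 0.978 and 0.475). The 95% interval at stage 2, from -0.36 to 0.06, does not include the -0.54 measured for Dusp5. It does overlap the 95% interval of Dusp5 itself, from -0.82 to -0.26. Whether the 2 genes differ in their response was not tested.

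Dusp6 (MKP-3, probe set 1415834_at) is the cytoplasmic phosphatase that acts on ERK and is among the genes most often used to read ERK activity. Its stage 1 readings were 85.1 and 116.5 on the Id3KO arrays, against 109.9 and 79.4 on the WT arrays. At stage 2 it read 104.5, 76.1 and 110.8 on the Id3KO arrays, against 138.8, 82.7 and 109.9 on the WT arrays. Arrays of 1 group differed among themselves as much as the groups did, and replicate 2 was the lowest of its group in both genotypes at stage 2. The log2 differences of 0.09 ± 0.28 at stage 1 and -0.17 ± 0.23 at stage 2 were not called (limma adjusted p 0.965 and 0.804), and their 95% intervals, from -0.55 to 0.74 and from -0.70 to 0.35, do not exclude a change of the size seen for Dusp5.

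Dusp10 (MKP-5, probe set 1417164_at) prefers JNK and p38 over ERK. At stage 2 it read 120.1, 116.0 and 138.9 on the Id3KO arrays, against 84.4, 88.2 and 123.7 on the WT arrays, overlapping through WT replicate 3. The difference of 0.36 ± 0.17 was not called (limma adjusted p 0.352), and it was 0.53 without that array. At stage 1 the difference was 0.13 ± 0.21. Its level at stage 2 relative to stage 1 differed by -0.19 ± 0.19 in Id3KO and by -0.42 ± 0.19 in WT, with adjusted p of 1.00 and 0.639.

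Spry1 (probe set 1415874_at), a Sprouty protein that restrains Ras and Raf signalling downstream of receptors, was the Sprouty gene called at stage 2. There it read 101.6, 91.2 and 97.2 on the Id3KO arrays, against 73.0, 79.9 and 74.3 on the WT arrays. At stage 1 it read 80.7 and 79.5 on the Id3KO arrays, against 82.8 and 90.0 on the WT arrays. All Id3KO arrays were above all WT arrays at stage 2. At stage 1 they were below them, with 2 arrays per group, a separation that 41.5% of all kept probe sets show in one direction or the other.

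At stage 2 Spry1 was 1.28-fold higher in Id3KO, a log2 difference of 0.35 ± 0.075 with a limma adjusted p of 0.0356. This call was lost with any 1 of the 10 arrays left out, at adjusted p between 0.0509 and 0.125, while the difference stayed between 0.32 and 0.39. At stage 1 the difference was -0.11 ± 0.091, with an adjusted p of 0.773. The interaction, 0.46 ± 0.12, ranked 177 of the 25061 probe sets by p but had an adjusted p of 0.532, so the 2 stages were not shown to differ. Relative to stage 1, its stage 2 level differed by 0.27 ± 0.083 in Id3KO and by -0.19 ± 0.083 in WT, neither of them called (adjusted p 1.00 and 0.619).

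Spry2 shares the Sprouty domain and the binding of the ubiquitin ligase Cbl with Spry1. Its brighter probe set, 1436584_at, read 179.4, 237.9 and 200.5 on the Id3KO stage 2 arrays and 144.8 and 105.3 on the Id3KO stage 1 arrays. It read 175.4, 177.8 and 162.4 on the WT stage 2 arrays and 184.4 and 132.4 on the WT stage 1 arrays. All Id3KO stage 2 arrays were above all Id3KO stage 1 arrays, while the WT stages overlapped. The stage difference was 0.73 ± 0.18 in Id3KO and 0.14 ± 0.18 in WT, with limma adjusted p of 1.00 and 0.919, so neither was called although the first ranked 69 of 25061 by p. The genotype difference was 0.25 ± 0.16 at stage 2 and -0.34 ± 0.20 at stage 1. The second probe set, 1421656_at, lay between 52.3 and 62.2 on all arrays, at the level of the table's median, and showed genotype differences of 0.01 ± 0.081 at stage 2 and 0.04 ± 0.099 at stage 1. Those values lie within the 95% intervals of the brighter probe set, from -0.12 to 0.63 at stage 2 and from -0.80 to 0.12 at stage 1. Both intervals include 0 and the second probe set is near background, so this does not test whether the probe sets agree.

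Spred1, a membrane relative of Sprouty that recruits neurofibromin to Ras, had 3 kept probe sets, none of them called in any contrast. The brightest, 1423160_at, read 147.1, 88.9 and 133.5 on the Id3KO stage 2 arrays, against 98.3, 100.4 and 96.3 on the WT stage 2 arrays. At stage 1 it read 125.0 and 116.0 on the Id3KO arrays, against 179.7 and 117.3 on the WT arrays. The groups overlapped at both stages, with differences of 0.29 ± 0.20 at stage 2 and -0.27 ± 0.25 at stage 1 (limma adjusted p 0.554 and 0.800).

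Spred1 probe set 1423162_s_at read 65.8, 69.2 and 69.2 on the Id3KO stage 2 arrays, against 48.1, 60.8 and 54.6 on the WT stage 2 arrays. At stage 1 it read 69.0 and 69.4 on the Id3KO arrays, against 64.5 and 58.9 on the WT arrays. All 5 Id3KO arrays were above all 5 WT arrays. The differences of 0.33 ± 0.093 at stage 2 and 0.25 ± 0.073 in the average did not pass (limma adjusted p 0.0971 and 0.107), nor did they in any alternative run. The third kept probe set, 1423161_s_at, was above the median on 3 arrays only and differed by 0.24 ± 0.15 at stage 2 and -0.04 ± 0.18 at stage 1. At stage 2 the fitted differences of all 3 probe sets were positive, between 0.24 and 0.33. At stage 1 they were -0.27, 0.17 and -0.04.

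**Figure D3:**
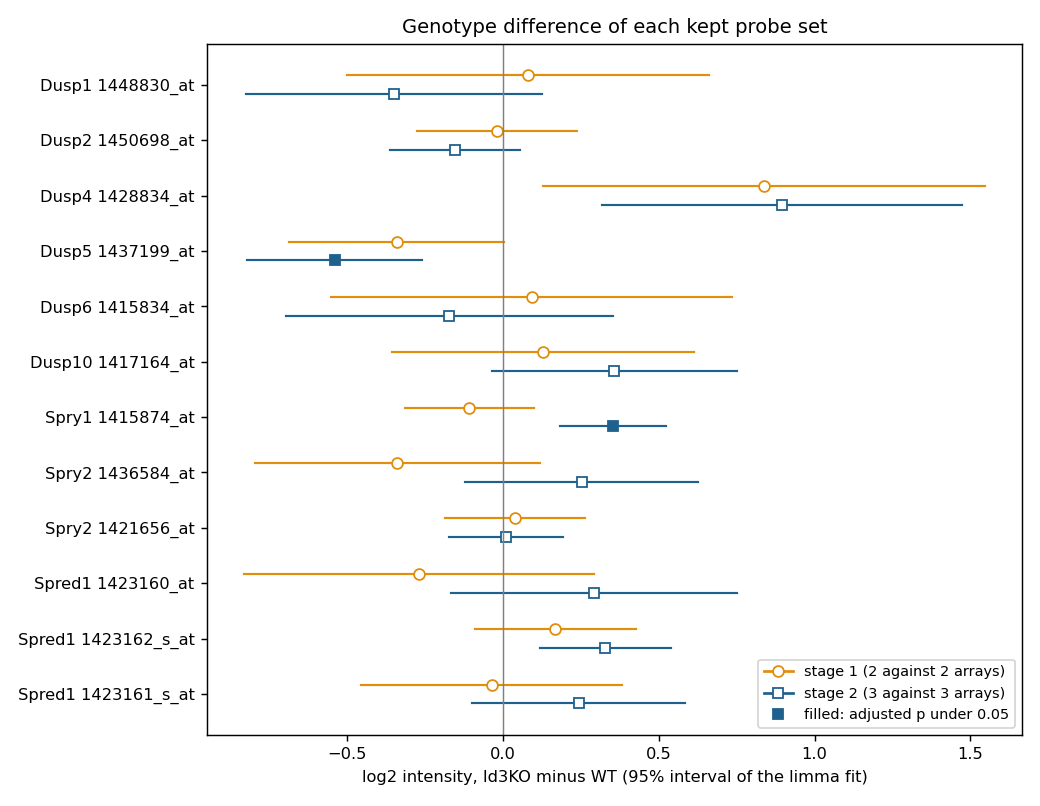
Log2 difference, Id3KO minus WT (horizontal axis), of each of the 12 kept probe sets (rows) at stage 1 (orange circles, 2 against 2 arrays) and stage 2 (blue squares, 3 against 3 arrays), with the 95% interval of the limma fit. Filled symbols have an adjusted p under 0.05: Dusp5 and Spry1 at stage 2. The differences of Dusp4, 0.84 and 0.90, have wide intervals and are measured against WT arrays near background.

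The values can also be read by whether the groups overlapped. At stage 1 there was no overlap between genotypes in 4 of 12 member probe sets (Dusp4 and Spred1 1423162_s_at higher, Dusp5 and Spry1 lower), against 41.5% of all kept probe sets, which is no more than the background. At stage 2 this held for 5 of 12 (Dusp4, Spry1, Spry2 1436584_at and Spred1 1423162_s_at higher, Dusp5 lower), against 21.4%. Over both stages it held for 3 of 12 (Dusp4 and Spred1 1423162_s_at higher, Dusp5 lower), against 6.85%. Dusp4 is in each of these counts, though it passed the filter on low values through the Id3KO arrays, where it is high. The separation of Dusp4 is therefore not independent of the filter. Spred1 1423162_s_at, also in each count, reads near background. The counts are a description only.

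Between stages, 0 of the 12 probe sets were called in either genotype. The background was 0% of all kept probe sets in Id3KO and 0.016% in WT, so limma called almost nothing between stages in these arrays. At an unadjusted limma p under 0.05, 2 of 12 members passed in Id3KO and 2 in WT, against 4.51% and 8.06% of all kept probe sets. Spry1 and Spry2 1436584_at did not overlap between stages in Id3KO, both higher at stage 2, against a background of 18.4%. Spry1 and Spred1 1423160_at did not overlap in WT, both lower at stage 2, against 26.2%. The interaction of genotype and stage was called for 0 of 12 members and 0% of all kept probe sets, with 2 members and 7.07% of all at an unadjusted limma p under 0.05.

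The rest of the pathway was taken from lists with 1 probe set per gene. For the 9 feedback genes the median log2 difference was 0.25 at stage 2 and -0.02 at stage 1, against 0.01 and -0.02 over all 11942 genes. The positive median at stage 2 comes from 5 genes above 0 and 4 below it, of which Spry1 and Dusp5, on opposite sides, passed the test.

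Of 13 other Dusp genes, 10 were kept, and 1 was called at stage 2: Dusp3, the small phosphatase VHR that acts on ERK and JNK. It differed by 0.51 ± 0.09 at stage 2 (limma adjusted p 0.0176) and 0.44 ± 0.11 at stage 1 (0.161). The median of this list at stage 2 was -0.02. Of 10 other Sprouty and Spred genes and partners, 6 were kept, and Spred2, which like Spred1 acts at Ras, was called at stage 2 with a difference of 0.55 ± 0.12 (0.0414). In the average over stages Spred2 was higher, by 0.50 ± 0.10 (0.0210), and Tesk1, a kinase that binds Sprouty, was lower (-0.36 ± 0.07, 0.0215). The median of that list was -0.04 at stage 2 and 0.16 at stage 1.

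Of 25 genes of the Ras and ERK cascade, 19 had a probe set of their own and 18 were kept. The others are not analysed here. Rps6ka3, which codes for the ERK substrate RSK2, was lower in Id3KO at both stages, with differences of -0.60 ± 0.09 at stage 2 (limma adjusted p 0.00803) and -0.68 ± 0.11 at stage 1 (0.0343). Rasa2, a GTPase activator of Ras, was higher in the average (0.37 ± 0.07, 0.0164). Rasgrp1, the Ras exchange factor that links the T cell receptor to Ras, differed by -0.46 ± 0.16 at stage 2 (0.172) and 0.86 ± 0.20 at stage 1 (0.114), neither called. The other genes of the list passed no genotype test, and its median was -0.09 at stage 2 and -0.04 at stage 1.

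Of 18 genes that respond to ERK, 16 were kept, with a median difference of -0.18 at stage 2 and 0.08 at stage 1. Stage 2 had 1 called higher and 2 called lower. Phlda1, an immediate early gene, differed by 0.55 ± 0.11 (limma adjusted p 0.0238). Fosl2, the AP-1 subunit Fra-2, was lower in Id3KO (adjusted p 0.00156). All 3 of its Id3KO stage 2 arrays lay below the table's median, and with that median as a floor the WT mean was 0.89 log2 units higher. The 2 Id3KO stage 1 arrays also lay below that median. Fosl2 thus passed the filter on low values through the WT arrays, where it is high, and its call is not independent of the filter. Mcl1, a survival gene of the Bcl2 family named after its values were seen, differed by -0.46 ± 0.11 (0.0481). In the average over stages Egr2, the factor that follows receptor signalling in iNKT precursors, was higher by 0.51 ± 0.09 (0.0153), while Id2 (-0.74 ± 0.13, 0.0154) and Ier5 (-0.54 ± 0.09, 0.0125) were lower. Egr1 differed by 0.02 ± 0.11 at stage 2 and 0.39 ± 0.13 at stage 1, and Fos by -0.20 ± 0.29 and -0.02 ± 0.36, none called.

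The JNK and p38 list, which holds kinases that Dusp1 and Dusp10 act on, had 16 kept genes of 17. At stage 2 the p38 genes Mapk12 and Mapk11 were higher in Id3KO, by 1.70 ± 0.20 (limma adjusted p 0.00284) and 0.65 ± 0.12 (0.0194). Mapk12 read 244.8, 285.8 and 198.6 on the Id3KO stage 2 arrays, against 84.0, 69.6 and 68.7 on the WT stage 2 arrays, with no overlap. No gene of this list was called at stage 1, and the list's median was -0.02 at stage 2.

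**Figure D4:**
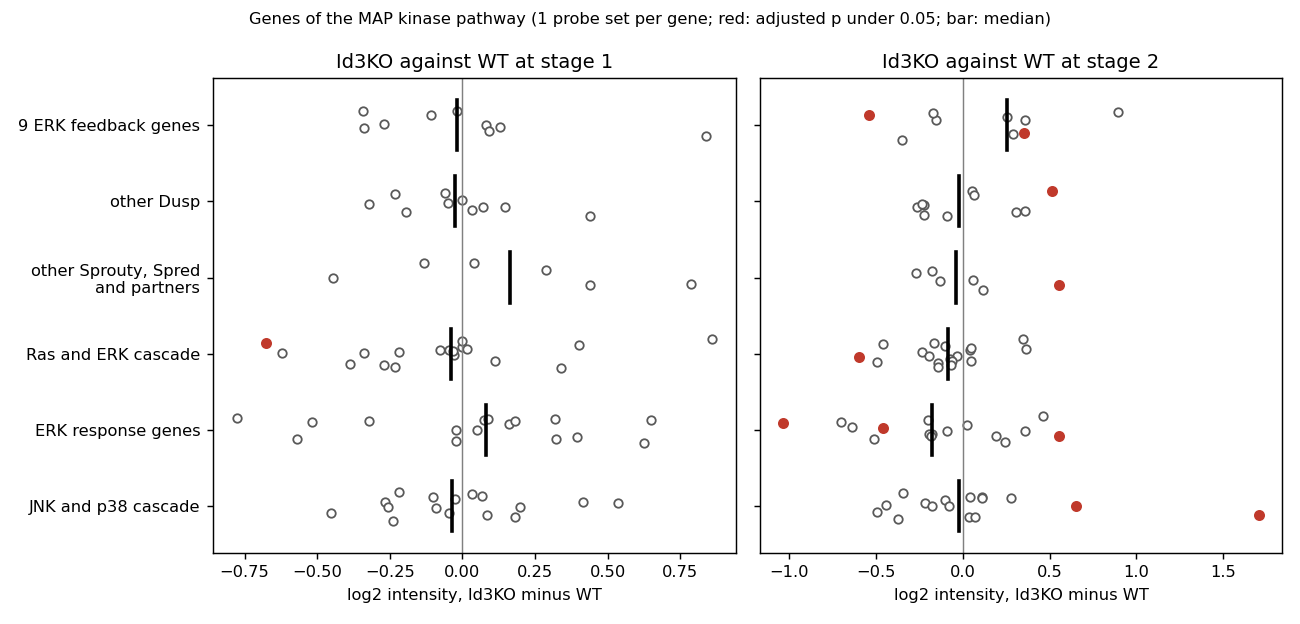
Log2 difference, Id3KO minus WT (horizontal axis), at stage 1 (left) and stage 2 (right) for the 9 feedback genes and 5 lists of related genes (rows), 1 point per kept gene, red where the limma adjusted p is under 0.05, with a black bar at each median. The medians lie between -0.18 and 0.25, and called genes lie on both sides of 0 at stage 2.

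Some marker genes differed by genotype beside these results. Among the 8 T cell and iNKT markers, whose sums were 9537 to 10131 in Id3KO stage 2 cells and 9935 to 10691 in WT stage 2 cells, Il2rb was lower at stage 2 (-0.95 ± 0.20, limma adjusted p 0.0326) and Cd247 in the average over stages (-0.54 ± 0.079, 0.00569). The summed intensity of the 5 B cell markers on the array was 1982 to 2235 in Id3KO stage 2 cells, against 1066 to 1375 in WT stage 2 cells, and 1875 to 1885 in Id3KO stage 1 cells, against 1026 to 1265 in WT stage 1 cells. Of this list Ighm was called higher at stage 2, averaging 1906 in Id3KO stage 2 cells and 1046 in WT stage 2 cells. Cd79b ran the other way, with 50.5 in Id3KO stage 2 cells and 70.1 in WT stage 2 cells (log2 difference -0.46 ± 0.13, limma adjusted p 0.0914). The defining markers Cd79a and Pax5 averaged 53.5 and 56.2 in Id3KO stage 2 cells, at the level of the table's median, and Ms4a1 was not kept. The 8 dissociation and heat shock genes, which include the ERK-responsive Fos and Jun, summed to 4210 to 4956 in Id3KO stage 2 cells, against 2973 to 3921 in WT stage 2 cells. Hspa1a had the largest difference among them at 1.54 ± 0.36 (limma adjusted p 0.0505), while Atf3 and Jun were not kept. Their part in the differences of Dusp4, Dusp5 and Spry1 was not tested. In sorted pools of this kind, a change in the mix of cells and a change in RNA per cell cannot be told apart.

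Genes whose log2 intensity across the 10 arrays was most like that of Dusp4 were sought among 11941 kept genes, as a description over arrays of both genotypes, so that r includes the genotype difference itself. Pearson's r was highest for Ubac2 (0.97), Ptgds (0.96), Aprt (0.95), Ryr3 (0.94) and Tcf24 (0.94). It was lowest for Tpst2 (-0.97), Notch2 (-0.93), Rab8b (-0.93), Ascc3 (-0.93) and Pitpnb (-0.93). Of these 10 genes, Ptgds, Aprt, Ascc3 and Pitpnb were not called for genotype in the average (limma adjusted p 0.544, 0.103, 0.196 and 0.321). Their likeness to Dusp4 includes the 2 Id3KO arrays, replicate 2 of each stage, on which Dusp4 was highest.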

How the data were processed

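Each deposited value is the linear intensity of 1 probe set on 1 array, summarised by the authors with RMA, per the submitters' processing notes, which name no version. The values were converted to log2 here, not by the authors. Labelled cRNA came from 2 cycles of cDNA synthesis, per the labels' protocols. An array has no count depth, so the number of arrays (2 or 3 per group) limits the precision. All 45037 probe sets entered the filter and 25061 were kept. Genes were named by the platform annotation, and genes were described only from probe sets of 1 gene (20942 of the kept ones). The 593 kept probe sets with several genes and the 3526 with none stayed in the fit, the adjustment and the background shares.

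The model was fitted in limma 3.58.1 (R 4.3.3), with a mean for each of the 4 groups and all 10 arrays together (6 residual and 2.80 prior degrees of freedom), with two-sided moderated tests and Benjamini-Hochberg adjustment over all kept probe sets of each contrast. An adjusted p under 0.05 is a call. The 6 contrasts were Id3KO against WT at each stage and averaged, stage 2 against stage 1 in each genotype, and the interaction. Differences carry the standard error of that fit. Probe sets differ in affinity, so no gene's level is set against another's. Intensities of different probe sets were used together in the sums over marker lists, compared between groups, and in choosing the probe set of highest mean to stand for a gene in the lists.

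The genes, lists, tests and alternatives were chosen with earlier results of these data known. All 9 genes are named with every kept probe set. Of each list, up to 4 called genes were named by size, plus Egr1, Egr2, Fos and Rasgrp1 in every case. The fit was also run on simulated data with independent noise and planted changes larger than the differences called for the 9 genes. That run does not test changes of the size called here. Alternatives were another filter, no filter, quantile normalization, array centring, a trended robust prior, weights per array, separate fits of each comparison's own arrays, 1 probe set per gene, replicate blocks, and leaving out each array. Promoters came from RefSeq (GRCm38.p6). No build is stated for the array files, so no probe positions are printed.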

Additional observations from a re-analysis of the deposited data

Results flagged for a closer look

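The order of the groups in Spry1 was opposite in 2 ways, only the stage 2 genotype difference having passed the test. Id3KO was above WT on every array at stage 2 and below it on every array at stage 1, and the level at stage 2 was above that at stage 1 in Id3KO and below it in WT, again with no overlap. Such separation was seen in 41.5% of all kept probe sets between genotypes at stage 1, 21.4% at stage 2, and 18.4% in Id3KO and 26.2% in WT between stages. Both are the same quantity, an interaction of 0.46 on the log2 scale (SE 0.12). limma's test of that difference gave an adjusted p of 0.532, so it failed the correction, and with 2 arrays per group at stage 1 the direction there rests on few values. Groups of 2 or 3 arrays are too small for a test of single outlying arrays.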

How the results depend on the processing

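The 2 calls at stage 2 and the 2 in the average over stages sat close to the threshold. At stage 2 the count of called probe sets was 1 with no filter, 1 with array weights, 0 with the trended robust prior and 0 when only the arrays compared were fitted. In the average it was 0 with no filter and 1 with quantile normalization. With 1 array left out it was 0 to 0 at stage 2 and 0 to 1 in the average; a group left with 1 array was assumed to vary like the others. With the replicate number as a block the count was 1 at stage 2, Dusp4 in place of Dusp5 and Spry1, and 1 in the average. The labels do not say whether a replicate number pairs arrays. Deviations from the group means had r from -0.31 to 0.13 between arrays sharing a number (13 pairs). Between WT stage 2 replicate 1 and Id3KO stage 1 replicate 2, which do not share one, r was 0.31. In a group of 2 arrays the deviations mirror each other. This value is therefore the -0.31 of Id3KO stage 1 replicate 1 with its sign reversed, not a separate observation. With 2 or 3 arrays per group these r cannot decide whether the numbers mark a pairing. With the Id3KO stage 1 numbers crossed in the block, an alternative chosen after seeing the data, the count was 0 at both. Why counts moved was not tested beyond the fewer arrays or other probe sets that enter each fit. The counts at stage 1, between stages and for the interaction were 0 in every alternative. Dusp4, Dusp5 and Spry1 kept their direction in every alternative of the contrasts in which they were called. Dusp4 in WT is limited by its nearness to background.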
